A study of Mus musculus with 10 samples.

Results

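The 4 genes described here, Tle1, Tle2, Tle3 and Tle4, encode the full-length mouse Groucho/TLE co-repressors. They were chosen by name among 21900 protein-coding genes. Their peaks are those that the authors' deposited table names as nearest to one of them, together with every peak whose centre lies within 50 kb of one of them. That gave 9 of the 6319 peaks of epiblast stem cells (EpiSCs) and 64 of the 42711 peaks of definitive endoderm (DE). Of these, all 9 and 51 lay within 50 kb, and the other 13 DE peaks were named by the authors from farther away.

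Peaks came from CUT&RUN, in which an antibody directs a nuclease to its target in permeabilised cells and the released DNA is sequenced. The target was OTX2, a homeodomain transcription factor, carrying an HA epitope in the mouse line labelled 7H OTX2-dTAG-EGFP (BL6/129 hybrid strain). The label dTAG names a degradation tag, carried by the EpiSC and DE groups alike, and no degrader treatment is given in the labels. EpiSCs were grown with Activin A at 20 ng/ml, FGF2 at 12.5 ng/ml and NVP at 175 nM. To make DE, the cells received Activin A at 40 ng/ml with CHIR at 3 µM for 16 h, followed by Activin A at 100 ng/ml with LDN at 100 nM for 24 h, and live cells were sorted. Each sample held 500000 cells, with 2 anti-HA samples per state. The 2 replicates of a state enter 1 peak list, so no value below has a replicate spread, and no test between the states was possible. The controls were 3 IgG lists of tagged EpiSCs and 1 anti-HA list of DE from the untagged parental line, labelled 5.8. Whether either line is a single clone is not given in the sources used here, and the cell types were not checked against marker expression, as no expression data were used here. Read depth is unknown.

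Groucho/TLE proteins do not bind DNA themselves. They are recruited by transcription factors, among them HES, RUNX, FOXA and TCF/LEF proteins. Their carboxy-terminal WD-repeat domain recognises short peptide motifs, as in HES and RUNX proteins, while TCF/LEF proteins bind the amino-terminal glutamine-rich domain, through which TLE proteins also assemble. They recruit histone deacetylases. In WNT signalling they occupy TCF/LEF factors until β-catenin replaces them. OTX2 itself is known to bind TLE proteins. The question here is where OTX2 peaks lay at the genes for these partners, before and after endoderm formation.

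The genes differ in size and surroundings. On mm10, Tle4 (chromosome 19, 14448072 to 14598183, minus strand) spans 150112 bp and Tle1 (chromosome 4, 72109945 to 72200989, minus strand) 91045 bp. Tle3 (chromosome 9, 61372326 to 61418497, plus strand) spans 46172 bp and Tle2 (chromosome 10, 81574739 to 81592581, plus strand) 17843 bp. Tle1, Tle3 and Tle4 stand far from other protein-coding genes of the RefSeq set used here. The closest one, Gm11232, is 351984 bp from Tle1, Uaca is 491894 bp from Tle3 and Olfr1505 is 528099 bp from Tle4. That set lacks Gm10655, which the authors' deposited table names for peaks on the 5′ side of Tle3. Tle2 sits in a Groucho gene cluster: Tle5, whose product lacks the WD repeats, ends 8367 bp to its left, and Tle6, a divergent family member, overlaps its 3′ end by 1678 bp.

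The RefSeq promoter sequences of the members (GRCm38.p6, 250 bases before to 50 bases after a listed start) are shown because the peaks at the gene starts differ among the genes, with peaks of both states at Tle3 and Tle4, of DE alone at Tle1 and of neither at Tle2. Capitals mark the bases inside a DE peak at Tle1, where EpiSC has no peak, and the bases inside the peaks of both states at Tle3 and Tle4. Tle2 has no capitals because no peak of either state touches its promoter window. The windows are chr4:72200844-72201143 (minus strand) for Tle1, chr10:81575037-81575336 (plus) for Tle2, chr9:61372116-61372415 (plus) for Tle3 and chr19:14598134-14598433 (minus) for Tle4, each written 5′ to 3′.
Tle1: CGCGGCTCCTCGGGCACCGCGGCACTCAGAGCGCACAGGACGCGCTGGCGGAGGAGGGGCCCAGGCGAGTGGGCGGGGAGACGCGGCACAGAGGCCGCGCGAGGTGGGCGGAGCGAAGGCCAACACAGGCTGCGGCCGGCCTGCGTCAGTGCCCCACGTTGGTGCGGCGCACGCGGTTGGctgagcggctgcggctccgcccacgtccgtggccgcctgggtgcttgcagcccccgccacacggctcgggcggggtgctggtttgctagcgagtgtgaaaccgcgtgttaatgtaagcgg
Tle2: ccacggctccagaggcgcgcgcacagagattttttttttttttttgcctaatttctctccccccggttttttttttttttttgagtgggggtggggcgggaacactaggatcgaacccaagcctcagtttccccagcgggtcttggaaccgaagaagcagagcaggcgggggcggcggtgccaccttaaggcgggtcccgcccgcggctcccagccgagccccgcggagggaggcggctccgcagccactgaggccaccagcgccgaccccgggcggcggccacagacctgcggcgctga
Tle3: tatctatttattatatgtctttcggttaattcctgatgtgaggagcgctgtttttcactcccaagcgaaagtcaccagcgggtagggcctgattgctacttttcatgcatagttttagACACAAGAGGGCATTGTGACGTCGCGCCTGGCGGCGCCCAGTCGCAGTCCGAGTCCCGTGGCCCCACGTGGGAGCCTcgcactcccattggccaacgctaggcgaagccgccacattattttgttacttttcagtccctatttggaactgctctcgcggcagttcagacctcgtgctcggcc
Tle4: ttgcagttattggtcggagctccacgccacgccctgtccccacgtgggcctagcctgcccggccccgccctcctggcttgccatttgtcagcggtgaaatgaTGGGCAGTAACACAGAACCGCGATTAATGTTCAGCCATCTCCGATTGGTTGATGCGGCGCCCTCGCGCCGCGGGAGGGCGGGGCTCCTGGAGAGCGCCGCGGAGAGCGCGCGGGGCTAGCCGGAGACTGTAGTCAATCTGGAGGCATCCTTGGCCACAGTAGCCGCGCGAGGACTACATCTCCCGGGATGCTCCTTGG

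At Tle4, all 300 promoter bases lay in the DE peak and 198 of them, the downstream part, also in the EpiSC peak. At Tle3, 180 bases lay in the DE peak and 99 in the EpiSC peak, with 77 in both, at positions 119 to 195 counted from the 5′ end. At Tle1, the first 180 bases lay in a DE peak and none in an EpiSC peak. A promoter window was thus overlapped by a DE peak at 3 of the 4 genes and by an EpiSC peak at 2, beside 27.3% and 9.79% of the 17492 protein-coding genes with a promoter window. A window overlapped by peaks of both states, as at Tle3 and Tle4, was found at 9.45% of those genes. Tle4 has a second listed start, whose window on chromosome 19 (14597164 to 14597463) held no peak.

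The bicoid-type core TAATCC, which OTX2 is known to bind, was searched on both strands. It was in 0 of the 5 promoter windows of the members, against 6.42% of 21263 windows of protein-coding genes and 7.63% of the 5254 such windows that overlapped a DE peak. With TAATCT allowed as well, the members' number stayed at 0, against 12.7% of the windows of protein-coding genes. With only 5 windows, a 0 is near the background in either search. These values describe only these windows: the sequence of the other peaks was not used here. The windows were rich in G and C at Tle1 (73.7%), Tle4 (65.0%) and Tle2 (64.7%), while Tle3 at 53.7% was below the median of 56.3% over windows of protein-coding genes.

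In DE, every member had peaks within 50 kb, as did 82.8% of protein-coding genes. Tle3 had 19, Tle4 had 16, Tle2 had 9 and Tle1 had 7. Exact Poisson intervals (95%, counting error only) ran from 11.4 to 29.7 for Tle3, from 9.15 to 26 for Tle4, from 4.12 to 17.1 for Tle2 and from 2.81 to 14.4 for Tle1. Each interval overlaps the others, and the order of the 4 genes was not tested. In EpiSC, Tle3 had 6 peaks, Tle2 had 2, Tle4 had 1 and Tle1 had none, so 3 of the 4 had a peak, beside 40.8% of protein-coding genes. The same 3 had peaks of both states, as did 40.5% of protein-coding genes, and a shared DE peak, as did 37.1%. For the count of 0 at Tle1, the exact interval ran up to 3.69 peaks.

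**Figure D1:**
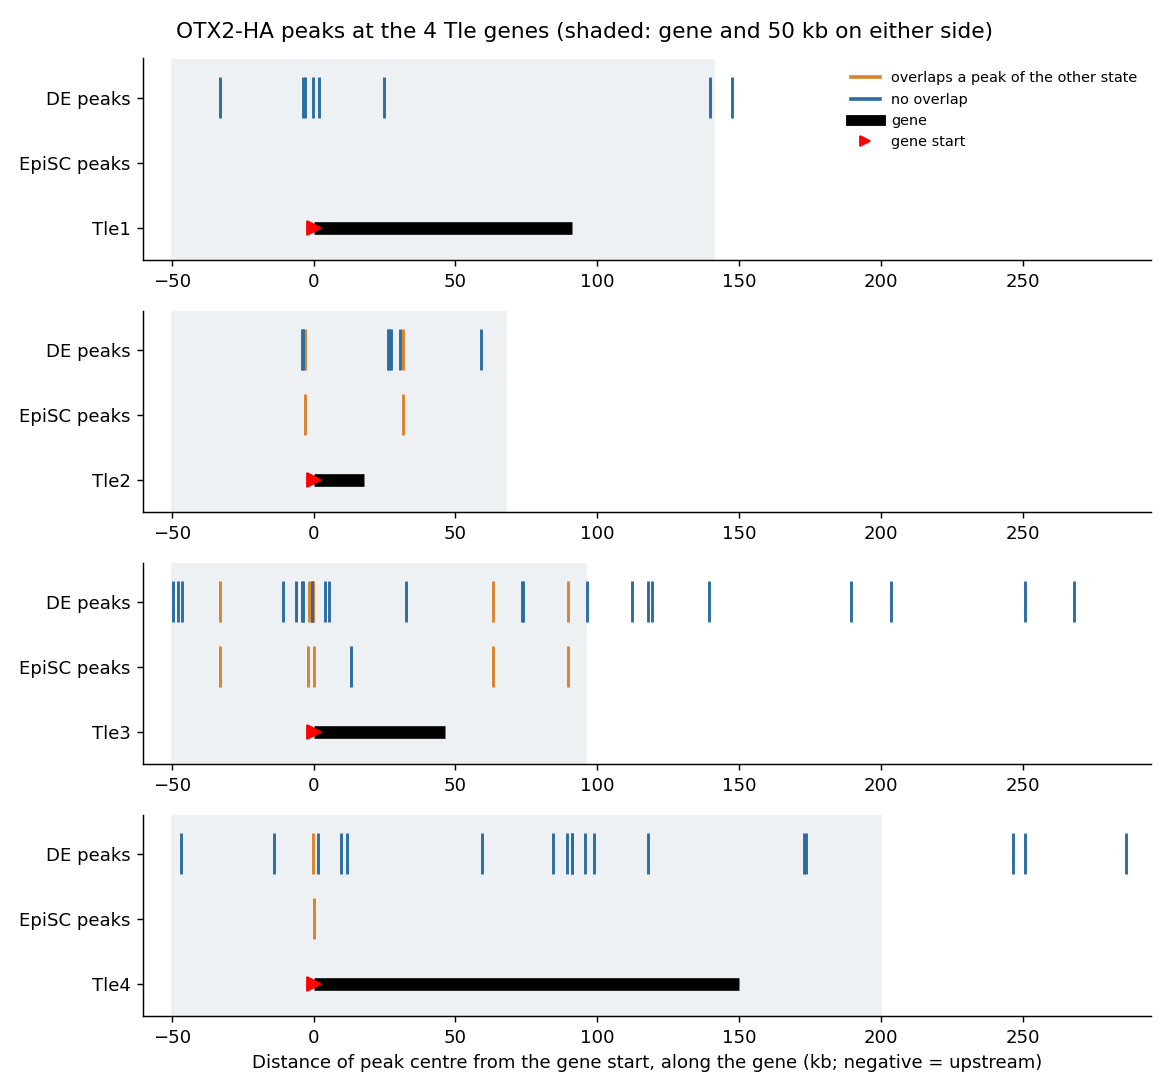
OTX2-HA peaks along the 4 Tle genes, with the distance of each peak centre from the gene start in kb on the x axis (negative upstream, in the direction of transcription) and the 2 peak lists as rows above the gene. Shading covers the gene and 50 kb on either side. Tle4 carries 11 DE peaks inside the gene and 1 EpiSC peak, at its start, while the 19 DE peaks of Tle3 in the shaded window include 16 outside the gene.

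Gene length did not order the counts. Per 100 kb of gene plus flanks, DE peak density was 13.0 at Tle3, 7.64 at Tle2, 6.40 at Tle4 and 3.66 at Tle1, and EpiSC density was 4.10, 1.70, 0.400 and 0. Across protein-coding genes within 1.5 times the length of each member, the median number of DE peaks was 3 for the length of Tle3, 3 for Tle2, 5 for Tle4 and 4 for Tle1. At least as many DE peaks as at Tle3 were seen in 0.107% of 3748 genes of like length. For Tle4 the share was 1.95% of 1589 genes, for Tle2 7.21% of 4829 and for Tle1 25.3% of 2493. In EpiSC, 0.854% of genes of like length had at least the 6 peaks of Tle3, 22.0% the 2 of Tle2 and 40.8% the 1 of Tle4. The 0 of Tle1 was the commonest value, shared by 59.4% of genes of its length. These shares place the genes and are no test.

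**Figure D2:**
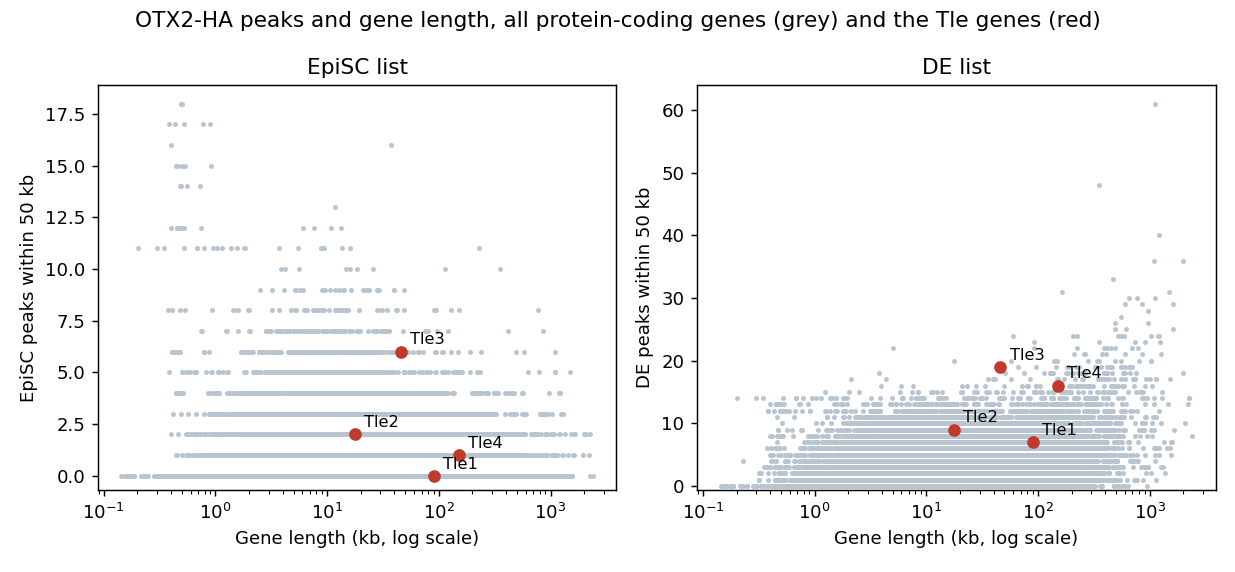
Number of OTX2-HA peaks within 50 kb (y axis) against gene length in kb (x axis, log scale) for all 21900 protein-coding genes in grey and the 4 Tle genes in red, for the EpiSC list (left) and the DE list (right). Tle3, at 46172 bp with 19 DE peaks, lies above nearly all genes of its length, and Tle1 with 7 lies among them.

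The DE list holds 6.76 times as many peaks as the EpiSC list overall. The ratio of DE to EpiSC peaks was 16.0 at Tle4 (exact 95% interval 2.49 to 671), 4.50 at Tle2 (0.931 to 42.8) and 3.17 at Tle3 (1.22 to 9.69). No ratio is given for Tle1, whose EpiSC count was 0. All 3 intervals contain the overall ratio, so at these counts no member's ratio could be told from that of the lists. Within 100 kb, Tle4 had 21 DE and 4 EpiSC peaks, a ratio of 5.25, which is below that of the lists where the 50 kb value is above it.

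The place of the peaks differed between the paralogues. At Tle4, 11 of 16 DE peaks lay inside the gene more than 1 kb from its start, 1 at the start, 2 upstream and 2 downstream. At Tle3, 9 of 19 lay upstream, 3 within 1 kb of the start, 3 inside the gene and 4 downstream. Tle1 had 3 upstream, 1 at the start, 2 inside and 1 downstream. Tle2 had none inside and none within 1 kb of its start, with 3 upstream and 6 downstream. A DE peak inside the gene was thus seen at 3 of the 4 members, beside 36.8% of protein-coding genes, and an EpiSC peak inside it only at Tle3, beside 9.48%. These 2 shares cover genes of every length and were not computed for genes of like length. Only 6.66% of protein-coding genes are at least as long as Tle4, 12.4% as Tle1 and 24.1% as Tle3. Within 1 kb of the start, 3 of the 4 had a DE peak, beside 30.1% of protein-coding genes with a known strand, and Tle3 and Tle4 an EpiSC peak, beside 10.7%. Of all DE peaks, 46.6% lay inside a protein-coding gene and 12.6% within 1 kb of the start of one. Per 100 kb, DE density inside the gene against the flanks was 7.33 against 5 at Tle4, 6.5 against 16 at Tle3, 2.2 against 5 at Tle1 and 0 against 9 at Tle2.

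**Figure D3:**
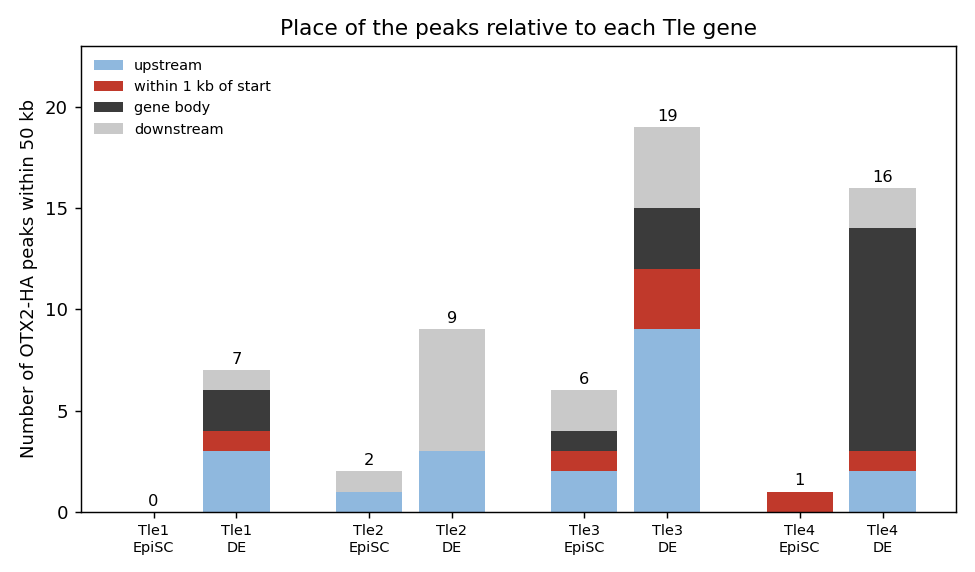
Stacked bars of the number of OTX2-HA peaks within 50 kb of each Tle gene (y axis) by cell state (x axis) and place: upstream, within 1 kb of the gene start, in the gene body or downstream. Numbers above the bars are totals. The gene body makes up most of the DE bar of Tle4 (11 of 16) and none of that of Tle2.

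At Tle3, a run of 10 DE peaks with gaps of up to 5 kb spanned 16661 bp (chromosome 9, 61361298 to 61377958), from 10885 bp upstream of the start to 5559 bp inside the gene. Its upstream peaks measured 287, 350, 384, 184, 284, 78, 176 and 180 bp and those inside the gene 263 and 146 bp. Some gaps were short: 87 bp between those of 78 and 176 bp, 179 bp between those of 176 and 180 bp, and 363 bp between those of 384 and 184 bp. Whether such neighbours are separate sites was not tested. Of the 10 peaks, 2 overlapped an EpiSC peak, too few to read against the 11.7% of all DE peaks that did. They were those of 284 and 180 bp, centred 1778 and 105 bp upstream of the start. Of 1776 runs of at least 3 DE peaks in the whole list, 0.225% held 10 peaks or more. Runs were defined after the peaks had been seen.

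At Tle4, a run of 6 DE peaks spanned 14596 bp inside the gene (chromosome 19, 14499230 to 14513825), 84395 to 98888 bp past the start. None of the 6 overlapped an EpiSC peak, beside 11.7% of all DE peaks that did, so this 0 is near the background. It includes a peak of 673 bp (14502217 to 14502889), the widest at any member: 0.199% of DE peaks were at least that wide. Runs of 6 or more made up 3.83% of the runs of at least 3. The gene table used here gives no exons, so whether these peaks lie in introns was not determined.

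At Tle1, 4 DE peaks lay within 5740 bp around the start (chromosome 4, 72199143 to 72204882). They were 173 bp wide at 1760 bp inside the gene, 252 bp at 100 bp upstream, and 164 and 174 bp at 3187 and 3806 bp upstream. The lncRNA gene C630043F03Rik lies between the start of Tle1 and the last 2 of these. The nearest EpiSC peak to the 252 bp peak was 1316435 bp away.

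At Tle2, 3 DE peaks of 146, 116 and 139 bp lay 4164, 3837 and 3009 bp upstream (chromosome 10, 81570502 to 81571799), within the lncRNA gene Gm31936. The 139 bp peak overlapped an EpiSC peak of 143 bp that began at the same base. Downstream, 5 DE peaks fell between 81600914 and 81606324, around the start of Tle6 on the minus strand. Of these, 3 were named Tle6 and 2 the pseudogene BC025920 in the authors' deposited table, and the ninth, 41071 bp past Tle2, was named Ankrd24. The window of Tle2 thus counts peaks that lie closer to its neighbours.

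Within 50 kb, Tle4 held the widest DE peaks. Its 16 DE peaks ran from 75 to 673 bp with a median of 162 bp, and 3 of them, of 449, 537 and 673 bp, were at least 400 bp wide, as were 3.24% of DE peaks. The widths at Tle3 ran from 64 to 384 bp (median 184), at Tle2 from 88 to 282 bp (139) and at Tle1 from 79 to 252 bp (164). Farther out, a DE peak that the authors named Tle3 was 488 bp wide, which is more than the 449 bp at Tle4. Over the members' windows the DE median was 164 bp, beside 138 bp for the whole list, and 32 of 51 peaks were wider than that. Over the 41 DE peaks that the authors named for a member it was 139 bp, level with the list. In EpiSC the 9 widths ran from 81 to 275 bp with a median of 150 bp, beside 141 bp for the list.

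**Figure D4:**
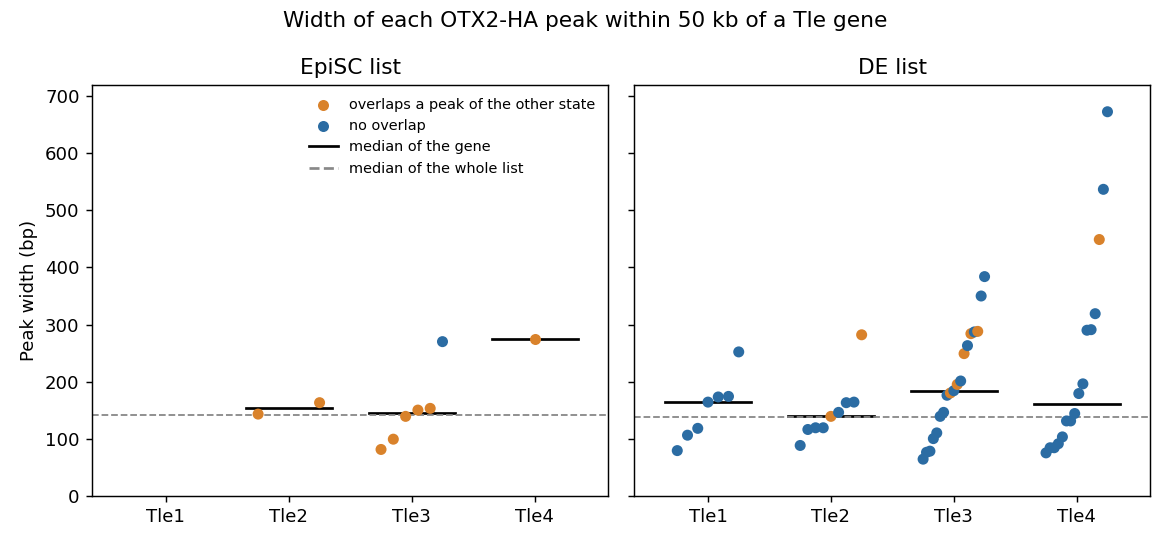
Width in bp (y axis) of each OTX2-HA peak within 50 kb of a Tle gene (x axis), in the EpiSC list (left) and the DE list (right). Points are single peaks, orange where they overlap a peak of the other state, black lines are the medians per gene and dashed lines the medians of the whole lists (141 and 138 bp). The peaks of 673, 537 and 449 bp at Tle4 are the widest.

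Sharing was read from overlap of at least 1 bp. A DE peak overlapped 8 of the 9 EpiSC peaks (88.9%, exact Clopper-Pearson 95% interval 51.8 to 99.7%), beside 78.8% of the EpiSC list. Within 100 kb it was 10 of 14, a lower share than that of the list, with 1 of 4 at Tle4. In the other direction, 8 of 51 DE peaks were shared (15.7%, 7.02 to 28.6%), beside 11.7% of the DE list. By gene, the shared DE peaks were 5 of 19 at Tle3 (26.3%, 9.15 to 51.2%), 2 of 9 at Tle2 (22.2%, 2.81 to 60%), 1 of 16 at Tle4 (6.25%, 0.158 to 30.2%) and 0 of 7 at Tle1 (interval up to 41.0%). Every interval overlaps the others and contains the share of the list. Adjacent peaks may not be independent, and the intervals allow for counting error alone.

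The 8 shared sites were spread over 3 genes. At Tle3, EpiSC peaks of 139, 150, 99, 153 and 81 bp met DE peaks of 195, 284, 180, 249 and 288 bp, in order along the chromosome. At Tle2, 143 and 163 bp met 139 and 282 bp, and at the start of Tle4, 275 bp met 449 bp. The DE peak was the wider in 7 of 8 pairs, and the EpiSC peak lay wholly inside it in 6. Over all shared EpiSC peaks these shares were 78.7% and 61.8%. Of the 4 genes, Tle4 was the one whose sole shared peak, and sole EpiSC peak, sat at the gene start.

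The remaining EpiSC peak was 270 bp wide, at 61385188 to 61385457 on chromosome 9, 12996 bp inside Tle3. It was the widest EpiSC peak at Tle3, and 12.3% of the EpiSC list was at least as wide. The nearest DE peak was 7229 bp away. The 5 shared sites of Tle3 lay at its start and in its flanks. None of its 3 DE peaks inside the gene was shared, a number too small to read against the 11.7% of the whole DE list.

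The nearest-gene names gave another count than the windows. In the authors' deposited table, DE rows named Tle4 18 times, Tle3 16 times, Tle1 4 times and Tle2 3 times, and EpiSC rows named Tle3 4 times and Tle4 and Tle2 once each. At Tle3, 12 of the 19 DE peaks in the window, all those on its 5′ side, carried the name Gm10655 there, including the peak centred 105 bp from the start. The EpiSC peak that overlaps it by 77 bp was named Tle3. The window of Tle3 thus counts peaks that the authors assigned to another gene. Gm10655 is not in the RefSeq set used here, so its kind and span were not read. Conversely, 9 DE peaks named Tle3 lay 50211 to 221910 bp beyond its 3′ end, and the widest of those was 488 bp (61491366 to 61491853). Tle4 had 3 such peaks, 96272 to 136275 bp past its 3′ end, and Tle1 had 1 at 56272 bp. None of these 13 overlapped an EpiSC peak, beside 11.7% of all DE peaks that did, so the 0 is near the background.

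No peak of the control lists used fell near the members. These include no IgG list of DE, although the series holds IgG samples of tagged and parental DE. IgG background in DE was therefore not examined. The 3 IgG lists, of 202, 149 and 200 peaks, and the parental anti-HA list of 14 peaks held none within 50 kb of a Tle gene and overlapped none of its HA peaks. Only 85 of all 49030 HA peaks (0.173%) overlapped a control peak, so a 0 here is near the background. The closest IgG peak was 1731758 bp from Tle1. The first 149 intervals of IgG replicate 3 are the whole of replicate 2, so these lists are not independent.

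Of the other Groucho genes, Tle6 had 9 DE and 2 EpiSC peaks within 50 kb and Tle5 had 8 and 2, all of them also counted for Tle2, and Tle7 on chromosome 8 had none. Among 24 transcription factors known to recruit TLE proteins, 22 had a DE peak and 13 an EpiSC peak, with a median of 6 and 1 peaks. Over all protein-coding genes, 82.8% had a DE peak and 40.8% an EpiSC peak, with medians of 3 and 0. Of the 24 factors, those with the most DE peaks were Runx1 (22 DE, 0 EpiSC), Prdm1 (15 and 0), the WNT effector Lef1 (13 and 2) and the endoderm forkhead genes Foxa1 (12 and 0) and Foxa2 (11 and 2), with which Hesx1 was tied (11 and 2). Among 12 other co-repressor genes, all 12 had a DE peak and 6 an EpiSC peak, numbers near those shares, with medians of 4 and 0.5. Ctbp2 had 8 and 2, Rcor2 had 7 and 2, Sin3a had 7 and 5, Tbl1x had 5 and 3, and the histone deacetylase gene Hdac3 had 4 and 0, tied in DE with Sin3b and Tbl1xr1 (4 and 1 each).

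Other genes matched the members in their numbers of DE, EpiSC and shared DE peaks, compared by the sum of absolute differences over the 3 numbers, with ties ranked by gene length. For Tle1 327 genes had the same 3 numbers, the nearest in length being 4921504E06Rik, Snx9 and Yeats2. For Tle2 there were 92, led by Adipor1, Agbl5 and Carmil3, and for Tle4 there were 7, led by Fgfr2, Stx8 and Syne3. No gene matched Tle3 in all 3: Myof differed by 1 (19 DE, 5 EpiSC and 5 shared peaks), and Slc2a3 and Mtcl1 by 2.

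The counts depend on the window and on how many DE peaks are kept. Within 25 kb Tle3 had 12 DE peaks and within 100 kb it had 31, and Tle4 had 4 EpiSC peaks within 100 kb. When only the 6319 widest DE peaks were kept, Tle3 and Tle4 had 6 each, Tle2 had 1 and Tle1 had none.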

How the data were processed

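OTX2-HA peak lists of EpiSCs and DE, 3 EpiSC IgG lists and 1 untagged parental list were used as deposited. They hold peak starts and ends (start taken as 0-based, printed 1-based). Per the submitters' processing notes, Bowtie2 2.3.5.1, SAMtools 1.14, Picard 2.26.10, bedtools 2.30, MACS2 2.2.6 and the build mm10 were used; caller settings and control are not given in the sources used here. Per the file names, HA peaks were merged over 50 bp. The HA lists hold no score or depth. Labels of EpiSC HA replicate 2 and of the DE IgG sample name DE files as well; each list was taken as that of the HA samples of the state in its name. The merged lists held the same intervals as the tables with nearest genes (42711 of 42711 and 6319 of 6319).

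Gene spans came from RefSeq (GRCm38.p6, the assembly behind mm10; 49980 genes with a position) and strand from its promoter windows, which matched all 4 members. The gene start, from which distances are given, is the 5′ end of the span. It can differ from the listed start of a promoter window, as at Tle1, Tle2 and Tle3. A peak was assigned by its centre and called shared at an overlap of at least 1 bp. Intervals are exact, at 95%. Counting was tested on simulated data. Python 3.11.15, pandas 2.3.3, numpy 2.4.6 and scipy 1.17.1 were used. No test was run, since each state has 1 list. Named genes were the members, other Groucho genes, up to 5 genes per related list with the most DE peaks, the 3 genes most like each member and the authors' nearest genes in a member window. Genes tied with the last of a related list, the closest protein-coding neighbours and Gm31936, which contains peaks, were named in addition. The members, lists and rules were chosen with earlier results of these data known. A gene of the co-repressor list is not reported here and was left out of its counts.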

Additional observations from a re-analysis of the deposited data

How the results depend on the processing

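No paired analysis was possible because both HA replicates of a state enter 1 peak list. Leaving out an HA replicate was not possible either. Of 123 values under alternatives, 95 stayed within 1.5 times the reported value and 28 did not. The 95 include values that could not move. Among them are those named below as fixed by construction and the shared counts of Tle1, which had no EpiSC peak. With a window of 25 kb, Tle3 had 12 DE peaks and 3 shared peaks in either list. With 100 kb, Tle3 had 31 DE peaks, Tle4 had 4 EpiSC peaks and the 4 genes together had 14 EpiSC peaks. Counted by the authors' nearest gene, Tle1 had 4 DE peaks, Tle2 had 3 DE peaks and 1 EpiSC peak. The median DE width over the members was then 139 bp. Inside the gene alone, DE peaks numbered 2 at Tle1, 0 at Tle2, 3 at Tle3 and 16 in all, and EpiSC peaks 0 at Tle2, 1 at Tle3, 0 at Tle4 and 1 in all. When only the 6319 widest DE peaks were kept (259 bp or more), DE peaks fell to 0 at Tle1, 1 at Tle2, 6 at Tle3, 6 at Tle4 and 13 in all. Shared peaks were then 1 at Tle2, 2 at Tle3 and 4 in all, in either list. An equal minimum width of 78 bp and the overlap rules (50% of the EpiSC peak, or centres within 500 bp) moved no value by over 1.5 times. Leaving out peaks that overlap a control peak changes nothing by construction, as no member peak overlaps one. Leaving out each IgG replicate in turn gives 0 IgG peaks near the genes (range 0 to 0), also by construction, as each list holds 0 there. Motifs were searched in the promoter windows alone, since no genome sequence was used here. Read depth limits all counts and is unknown.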

Other observations

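The promoter windows of Tle3 and Tle4 printed above both hold the palindrome CCCACGTGGG, which contains the E-box CACGTG, which many basic helix-loop-helix factors bind. The second window of Tle4 holds neither. The longer sequence is in 29 of 21263 windows of protein-coding genes (0.136%) and in 11 of the 5254 that overlap a DE peak (0.209%), and the E-box alone in 7.84% and 9.80%. A window of Tle6 holds the palindrome too, and those of Tle1 and Tle2 hold neither sequence. The E-box begins at position 183 of the printed Tle3 window, inside the stretch covered by peaks of both states, and at position 41 of the Tle4 window, inside the DE peak alone. Both sequences were picked after the windows had been read, so these shares are a description and no test.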
